A study of Mus musculus with 6 samples.

Results

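The genes described here encode enzymes that handle adenine nucleotides and phosphocreatine in muscle: Ada, Ampd1, Ampd3, Adssl1, Ak1, Ckm, Ckmt2 and Ckb. They were taken as all probe sets whose array annotation gives exactly 1 gene symbol and where that symbol is one of these 8. The rule found 12 probe sets for 7 of the 8 genes, among 8251 genes that had a probe set with a single symbol. Ampd1, the AMP deaminase of muscle fibres, was not analysed here. The group was chosen by function with the knockout and wild-type values of these same arrays already known, among them the high Ada value in the knockout. All differences between the genotypes are therefore given as descriptions, and their p-values are no independent evidence.

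Total RNA of soleus, a slow-twitch hindlimb muscle used in posture, was hybridised to Affymetrix mouse arrays, 1 per sample. There were 3 samples of male wild-type C57BL/6 mice and 3 of male BERKO mice, which lack the estrogen receptor beta (the product of Esr2, a ligand-activated transcription factor). The labels give no age or treatment for either group, no strain for BERKO, and no statement that each sample is 1 animal, so the spread between samples may be technical. All 6 arrays carried the same lot number.

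Contracting muscle spends ATP faster than mitochondria can replace it, and 2 buffers cover the gap. Creatine kinase moves a phosphate from phosphocreatine to ADP in the cytosol, and its mitochondrial form reloads creatine at the site of ATP synthesis. Adenylate kinase turns a pair of ADP molecules into ATP and AMP, and AMP deaminase then removes AMP as IMP. The purine nucleotide cycle returns IMP to AMP through adenylosuccinate synthetase and adenylosuccinate lyase. AMP that is dephosphorylated becomes adenosine, a vasodilator that adenosine deaminase inactivates to inosine.

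The values were the authors' deposited intensities on a linear scale. The array medians lay between 39.8 and 40.55 in wild type and between 36.8 and 39.3 in the knockout. The Gapdh control reading at the 3' end divided by that at the 5' end, which tracks RNA integrity, was 0.979 to 1.124 in wild type against 0.953 to 1.042 in the knockout. The arrays fall into 2 sets by the prefix of the sample titles, whose meaning is not given: replicate 2 of each group shares one prefix, and the other 4 arrays share the other. The Esr2 probe set read 1.3 to 3.2 in wild type against 3.9 to 8.4 in the knockout, at or near the floor of 7.8 set for low values, so the targeted gene gives no check of the labels. The 4 probe sets of Esr1, the related receptor, read 4 to 26.3. Of the skeletal muscle markers, 6 of 6 with a probe set were tested. Myoglobin Mb read 6829.3 to 9799.4 over the 6 arrays, and the slow heavy chain Myh7 read 7235.3 to 9901.8, both far above the floor.

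The test covered probe sets that read above 39.4, the overall median value, on 3 or more of the 6 arrays, which 8 of the 12 member probe sets did, at least 1 for each of the 7 genes. All 8 were higher on average in the knockout, with a median log2 difference of 0.17. Over all 6369 probe sets tested, 46.8% were higher and the median was -0.016. In limma, with p-values adjusted by Benjamini-Hochberg over the whole table, 0 of the 8 passed an adjusted p of 0.05, against a background of 0% of all probe sets, and their adjusted p-values ran from 0.923 to 0.996. At an unadjusted p under 0.05 there were 2 of the 8, Ada and the brighter Ckmt2 probe set, where the background was 5.24%. The groups did not overlap for 3 of the 8, Ada, Adssl1 and the brighter Ckmt2 probe set, all higher in the knockout. Over all probe sets tested, 5.45% were higher and 5.23% lower without overlap. After quantile normalization 1 of the 8, Ada, was without overlap, where 9.32% of all probe sets were.

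**Figure D1:**
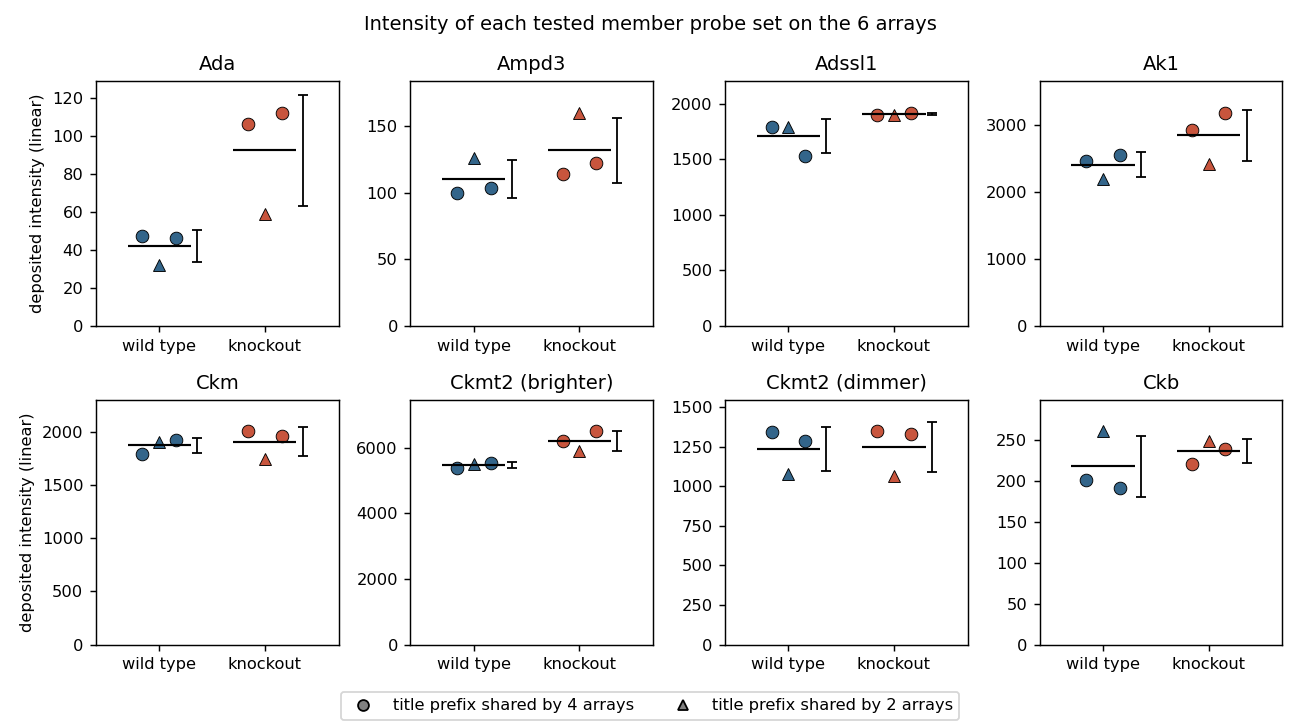
Deposited intensity (linear axis from 0) of the 8 tested member probe sets on the 6 arrays, in wild type (blue) and in the knockout (red). Horizontal lines are group means, bars at the side are ± 1 SD (n = 3 each), and triangles mark replicate 2 of each group, which share a title prefix. The groups are apart for Ada, Adssl1 and the brighter Ckmt2 probe set and overlap for the other 5.

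Adenosine deaminase showed the widest difference of the group. The tested Ada probe set read 47.5, 32.2 and 46.2 in wild type against 106.3, 58.8 and 111.9 in the knockout. All knockout arrays lay above all wild-type arrays, and replicate 2 was the lowest of its group in both genotypes. The means were 42.0 ± 8.48 and 92.3 ± 29.2 (SD, n = 3 each), and the log2 difference was 1.10 ± 0.28 (SE). The difference was 1.22 among the 4 arrays of the larger title prefix and 0.87 between the replicate 2 arrays.

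The signal of Ada was modest: in wild type 2 of the 3 arrays exceeded the filter value. The other 2 Ada probe sets did not pass the filter. One read 1.8 to 3.7 over the 6 arrays, below the floor on each of them. The other read 18.7, 18.2 and 3.6 in wild type against 23.3, 19.9 and 17.9 in the knockout, with groups that overlapped. The high knockout values of Ada therefore rest on 1 of 3 probe sets.

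Ada is abundant in lymphoid cells, so their markers were read beside it. Of 8 genes with a probe set in the T lymphocyte and thymus list, 4 were tested. In the knockout 3 of these were higher, with a median of 0.20. Over all probe sets tested, 46.8% were higher and the median was -0.016. Thy1 was lowest on wild-type replicate 2, at 10.8, and Cd4 on wild-type replicate 3, at 12.8. The log2 differences of the 4 tested genes were 0.62 ± 0.55 (SE) for Thy1, 0.30 ± 0.57 for Cd4, 0.093 ± 0.24 for Dntt and -0.28 ± 0.29 for Rag1. The groups of each overlapped. The other 4 did not pass the filter: the T cell receptor components Cd3d and Cd3g and the coreceptor Cd8a read at most 9.2, and Cd3e at most 12.6. The summed intensity of the list was 168.1 to 289.2 in wild type against 189 to 278.4 in the knockout, ranges that overlap. The part of these cells in the Ada values was not tested. In a whole muscle, fewer cells of a type and less RNA per cell cannot be told apart.

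The 3 genes whose pattern over the 6 arrays came nearest to that of Ada were Ogg1, Fgfr3 and Ache, with a root mean square distance of 0.232, 0.241 and 0.255 between log2 values less their own means. Ada's own spread on that scale was 0.652. Ogg1, a DNA glycosylase for oxidised guanine, read 35.9 to 39 in wild type against 55.9 to 108 in the knockout. The growth factor receptor Fgfr3 read 14.1 to 30.4 and 42 to 60.1. Ache, which breaks down acetylcholine at the nerve-muscle synapse, read 13.9 to 25.5 and 40 to 80.7. Each of them was below the filter value on all 3 wild-type arrays, so these are patterns of dim probe sets. They passed the filter only through their 3 knockout arrays, so their likeness to Ada was in part set by the filter.

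The purine nucleotide cycle was represented by Ampd3 and Adssl1. Ampd3, the AMP deaminase known from red blood cells, read 100.1, 126.3 and 103.4 in wild type against 114, 159.8 and 122 in the knockout. The groups overlapped, since wild-type replicate 2 lay above 2 of the knockout arrays. Replicate 2 was the highest of its group in both genotypes, by 0.31 in wild type against 0.44 in the knockout on the log2 scale. Compared within a title prefix, the knockout was higher in both, by 0.21 among 4 arrays and 0.34 between the replicate 2 arrays. The overall log2 difference was 0.26 ± 0.17 (SE).

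Markers of red blood cells were read beside Ampd3. The hemoglobin gene Hba-a1 read 4499.9, 1662.2 and 1788 in wild type against 2277.4, 2029.4 and 2140 in the knockout. Its lowest reading in each group fell on replicate 2. Alas2, the heme synthesis enzyme of red cell precursors, read 166.7, 42 and 76.4 in wild type against 50.3, 57.8 and 59.6 in the knockout, with replicate 2 the lowest in wild type only. Slc4a1 read 57.1, 29.2 and 46.7 in wild type against 53.6, 30.2 and 41.5 in the knockout, with replicate 2 the lowest in both groups. Epb42 did not pass the filter. All 3 tested genes were lower in the knockout, as were 53.2% of all probe sets tested, with a median log2 difference of -0.15. The list of 4 genes with a probe set had a summed intensity of 1736.9 to 4730.3 in wild type against 2122.1 to 2390.3 in the knockout, most of it from Hba-a1. Their part in the Ampd3 values was not tested. The genes nearest in pattern to Ampd3 were Ankrd28, Kansl2 and the sarcoglycan-associated gene Sspn, at distances of 0.038, 0.042 and 0.045 against a spread of 0.222 for Ampd3 itself. Sspn read 447.8, 518.1 and 435.7 in wild type against 489.7, 650.1 and 518.3 in the knockout, with the same high replicate 2.

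Adssl1 is the muscle form of adenylosuccinate synthetase, which commits IMP to its return to AMP. It read 1793.8, 1795.9 and 1530.3 in wild type against 1897.5, 1903.8 and 1917.7 in the knockout. The knockout arrays lay close together and all above wild type, and wild-type replicate 3 was the lowest. The means were 1707 ± 153 and 1906 ± 10.3 (SD, n = 3 each), and the log2 difference was 0.16 ± 0.09 (SE). After quantile normalization the difference was 0.040 and the groups overlapped, with 1575.9 to 1921.9 in wild type against 1785.5 to 1863.4 in the knockout.

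Genes of the same cycle outside the group gave mixed values. Adsl, adenylosuccinate lyase, which completes the return to AMP, read 438.6, 423.4 and 390.6 in wild type against 517.8, 474.6 and 536.3 in the knockout, with no overlap and a difference of 0.29 ± 0.11 (SE) in log2 units. Adss, the form of the synthetase found in most tissues, stood at 0.0045 ± 0.15. Of 4 tested genes of purine synthesis 2 were higher and 2 lower, with a median of -0.046, and 0 passed in limma in either direction (smallest adjusted p = 0.923). With 1 array left out the median ran from -0.094 without wild-type replicate 2 to 0.0028 without wild-type replicate 1. Gart, which acts early in the new synthesis of purines, stood at -0.12.

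The RefSeq promoter table (GRCm38.p6) held all 7 genes. The bases before the start site are shown for the 3 genes whose groups did not overlap, in lower case and 5′ to 3′ on the gene's strand. Capitals mark the E-box CANNTG, the core that myogenic and other helix-loop-helix factors can bind, and AGGTCA, a motif that estrogen and other nuclear receptors can bind as part of a longer element. For Ckmt2 the stretch ends where the longest annotated transcript begins.
Ada, chr2:163750240-163750489, minus strand: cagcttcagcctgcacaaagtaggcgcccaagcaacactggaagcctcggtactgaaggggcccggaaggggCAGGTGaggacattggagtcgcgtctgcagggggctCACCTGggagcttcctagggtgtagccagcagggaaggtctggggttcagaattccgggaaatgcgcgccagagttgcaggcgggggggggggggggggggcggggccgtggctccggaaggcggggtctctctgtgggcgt
Adssl1, chr12:112619797-112620046, plus strand: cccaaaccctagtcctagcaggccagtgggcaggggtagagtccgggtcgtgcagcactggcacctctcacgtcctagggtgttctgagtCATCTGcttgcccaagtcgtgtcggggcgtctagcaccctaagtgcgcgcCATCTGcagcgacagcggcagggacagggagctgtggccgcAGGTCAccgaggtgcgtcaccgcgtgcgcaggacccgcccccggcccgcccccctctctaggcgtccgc
Ckmt2, chr13:91876924-91877135, minus strand: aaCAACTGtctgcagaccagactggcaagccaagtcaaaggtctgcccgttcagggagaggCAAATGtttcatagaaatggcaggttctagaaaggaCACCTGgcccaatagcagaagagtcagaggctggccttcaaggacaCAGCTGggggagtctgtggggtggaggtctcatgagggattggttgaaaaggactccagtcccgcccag

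Both strands of the 250 bases before each start site were searched. Ada held 2 E-boxes, Adssl1 held 2 and Ckmt2 held 4. Of the other members, Ckm held 1 and Ckb held 0. The 4 Ak1 windows held 3, 1, 2 and 1, and the Ampd3 windows 1, 3 and 0. Of all 32851 windows of that length, 66.2% held at least 1 E-box. AGGTCA was found in Adssl1, and in 2 of the 4 Ak1 windows, against 14% of all windows. The full palindromic estrogen response element was in none of the members' windows and in 0.0639% of all windows. These are matches of letters and not binding sites.

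Ak1 is the cytosolic adenylate kinase of muscle. It read 2454.5, 2195.1 and 2553.7 in wild type against 2926.2, 2415.7 and 3173.6 in the knockout. The groups overlapped because knockout replicate 2 lay below 2 of the wild-type arrays, and replicate 2 was the lowest of its group in both genotypes. Within the larger title prefix the knockout was higher by 0.28 on the log2 scale, and between the replicate 2 arrays by 0.14. The overall log2 difference was 0.24 ± 0.12 (SE), and 0.098 ± 0.12 after quantile normalization.

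Other nucleotide kinases did not share one direction. Of 6 tested genes 3 were higher and 3 lower, with a median of -0.046, and 0 passed in limma (smallest adjusted p = 0.923). With 1 array left out the median ran from -0.13 without wild-type replicate 2 to 0.058 without knockout replicate 1. Cmpk1, which phosphorylates UMP and CMP, read 139.5, 149.9 and 135.6 in wild type against 118.1, 103.3 and 119 in the knockout, lower without overlap and with a log2 difference of -0.32 ± 0.13 (SE). Guk1, the guanylate kinase, stood at 0.18 ± 0.18, and Ak3, an adenylate kinase of the mitochondrial matrix, at -0.15 ± 0.22.

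The creatine kinases differed little between the genotypes, and only the brighter Ckmt2 probe set had groups that did not overlap. Ckm encodes the cytosolic form of muscle. Its tested probe set read 1799.6, 1906.5 and 1922.8 in wild type against 2007.4, 1752.5 and 1966.2 in the knockout. All wild-type readings lay inside the knockout range, and the log2 difference was 0.023 ± 0.091 (SE). A further Ckm probe set read 8.6 to 25.8 and 12.4 to 41.7, and did not pass the filter. It read higher on average in the knockout, at 29.6 ± 15.3 against 15.0 ± 9.41 in wild type (SD, n = 3 each), and the readings overlapped. The maker's suffix _f_at of the tested Ckm probe set marks probes that match a family of similar sequences, so its signal may not be Ckm alone.

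Ckmt2 encodes the sarcomeric mitochondrial form, which sits between the mitochondrial membranes. The brighter probe set read 5383.1, 5520.4 and 5553 in wild type against 6207, 5898.2 and 6502.1 in the knockout. All knockout arrays lay above all wild-type arrays, and the log2 difference was 0.18 ± 0.072 (SE). The dimmer probe set read 1343.2, 1075.1 and 1285.3 in wild type against 1345.7, 1063.7 and 1329.4 in the knockout, with groups that overlapped and a difference of 0.012 ± 0.13, and it too carries the suffix _f_at. In that probe set replicate 2 was the lowest of its group in both genotypes. The third Ckmt2 probe set read at most 7 on every array. Of the 2 tested probe sets of Ckmt2 only the brighter was thus without overlap, though the ranges of ± SE around their differences overlapped. After quantile normalization they stood at -0.048 and -0.046.

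Ckb, the brain-type cytosolic kinase found in nerve, smooth muscle and other tissues, read 201.7, 260.6 and 191.9 in wild type against 220.7, 249.3 and 239.5 in the knockout. Wild-type replicate 2 was the highest of all 6 arrays, and the groups overlapped. The difference was 0.22 within the larger title prefix and -0.064 between the replicate 2 arrays, and 0.13 ± 0.15 (SE) overall. The markers of tissues that hold Ckb were read beside it. The smooth muscle list, with 5 genes on the array, summed to 654.6 to 744.1 in wild type against 711 to 770.9 in the knockout. The nerve and Schwann cell list, also with 5, summed to 344.2 to 433 and 317.4 to 364. Their part in the Ckb values was not tested.

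Nearest in pattern to Ckb were Clk3, Capzb and Aimp2, at distances of 0.033, 0.049 and 0.052 against a spread of 0.16 for Ckb. Capzb, a subunit of the actin capping protein of the Z-disc, read 415.8 on wild-type replicate 2, which was also the highest array for Ckb. Nearest to Ckm were Ints14, Pgam2 and Naxe, at 0.026, 0.027 and 0.027 against a spread of 0.069. Pgam2, the muscle phosphoglycerate mutase of glycolysis, read 2370.2, 2492.3 and 2541.7 in wild type against 2719, 2318.5 and 2502.9 in the knockout. As for Ckm, knockout replicate 1 was the highest and knockout replicate 2 the lowest array.

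The replicate 2 arrays stood apart for several members. Counting the title prefixes separately, 5 of the 8 tested probe sets were higher in the knockout in both, so that both knockout arrays exceeded both wild-type arrays in one set and replicate 2 was higher in the other. They were Ada, Ampd3, Adssl1, Ak1 and the brighter Ckmt2 probe set, and the background over all probe sets was 9.73%. This count was defined after the values were seen. The remaining 3, Ckm, Ckb and the dimmer Ckmt2 probe set, were lower in the knockout between the replicate 2 arrays, with log2 differences of -0.12, -0.064 and -0.015. Without wild-type replicate 2, or without knockout replicate 2, 5 of the 8 did not overlap, where 21.9% and 25% of all probe sets did not.

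Bright probe sets as a whole were higher in the knockout, and most members are bright. The median log2 difference over all tested probe sets ran from -0.081 in the dimmest of 5 equal groups to 0.054 in the brightest, and was 0.16 in the 127 brightest, which averaged at least 2111. Ckmt2 at 0.18 and Ak1 at 0.24 belong to that brightest set. Skeletal muscle markers were higher on the same arrays: 5 of 6 were higher, and their summed intensity was 31688.9 to 40666.4 in wild type against 41382.4 to 43422.5 in the knockout. Skeletal actin Acta1 stood at 0.29 and myoglobin Mb at 0.27, both without overlap. Fast fibre genes had a median of 0.24, with 8 of 11 higher, among them the calcium store protein Casq1 at 0.42 and the light chain Myl1 at 0.27. Slow fibre genes had a median of 0.17, with 7 of 9 higher, among them the light chain Myl3 at 0.21 and the tropomyosin Tpm3 at 0.23. In the fast list Myh4, Actn3 and Pvalb were lower, at -2.64, -1.48 and -0.32. After quantile normalization the medians were 0.0015 for the fast list and -0.049 for the slow list, and without wild-type replicate 1 the slow list stood at 0.066. No gene of these 3 lists passed in limma (smallest adjusted p = 0.923). The part of muscle RNA content or of array scaling in the member differences was not tested. Quantile normalization, which gives all arrays one distribution, left Ada at 1.17, Ampd3 at 0.27 and Ckb at 0.12, and brought Ckm to -0.065.

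**Figure D2:**
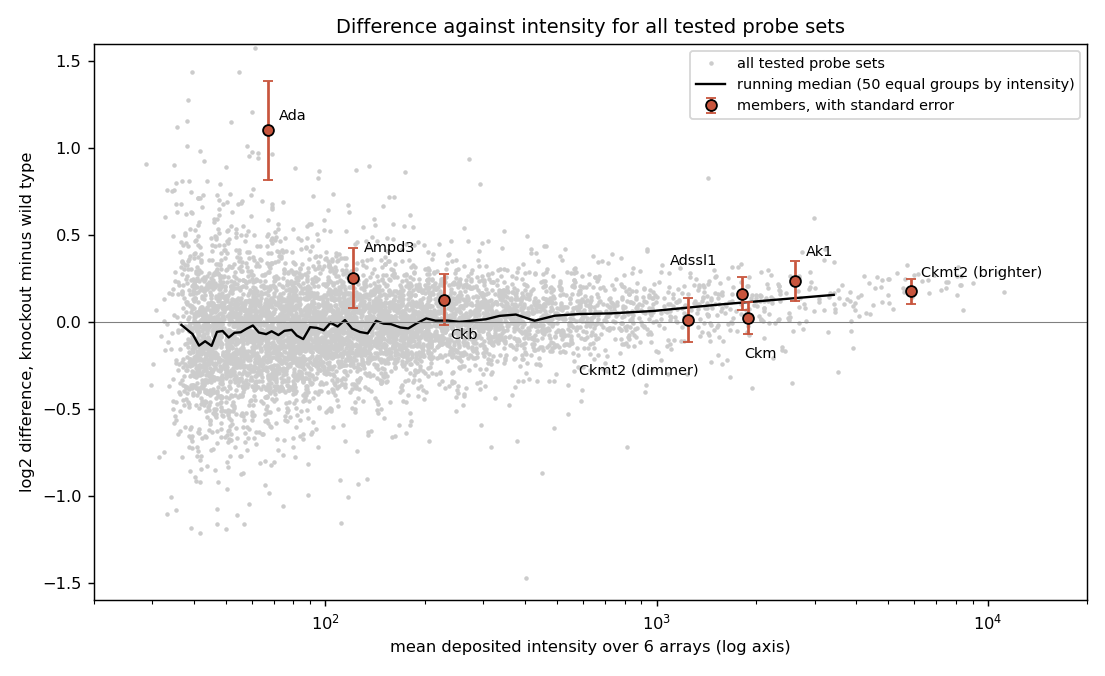
Log2 difference, knockout minus wild type, against mean intensity over 6 arrays (log axis) for all tested probe sets (grey; 7 lie outside the vertical limits of 1.6 either way), with a running median in black and the 8 tested member probe sets in red with their standard errors. The running median climbs with intensity, the Ckm, Adssl1, Ak1 and dimmer Ckmt2 points lie close to it, the brighter Ckmt2 point lies beyond its right end, and Ada stands well above it at 1.10.

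Fast fibres rely most on these buffers, and the heavy chain Myh4 and the actinin Actn3 mark the fastest glycolytic fibres. Of the 11 tested genes of the fast list, 8 were higher in the knockout, while Myh4 and Actn3 were lower. The brighter Myh4 probe set read 1610, 3670.9 and 499.4 in wild type against 211, 790.7 and 73.8 in the knockout. Replicate 2 was the highest in both groups. Heavy chain genes are alike in sequence, so the signal may not be Myh4 alone. A dimmer tested Myh4 probe set read 48.5, 52.5 and 38.4 in wild type against 34.5, 49.5 and 50.4 in the knockout. Its groups overlapped, and its log2 difference was -0.061 ± 0.26 (SE). The brighter Actn3 probe set read 519.4, 922.2 and 309.9, and 256.8, 340.2 and 79. A dimmer tested Actn3 probe set, with the suffix _f_at, read 140.9, 230.8 and 94 in wild type against 70.4, 86.3 and 45.4 in the knockout. It was lower without overlap, as were 5.23% of all probe sets tested, and its log2 difference was -1.16 ± 0.33 (SE). Ampd3 and Ckb were likewise highest on replicate 2 in both groups. Ada and Ak1 were lowest on replicate 2 in both groups. The part of fibre makeup in the member values was not tested.

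Around the phosphocreatine system, all 3 tested genes of creatine supply were lower in the knockout, as were 53.2% of all probe sets tested. Their median log2 difference was -0.20, and 0 passed in limma (smallest adjusted p = 0.958). With 1 array left out the median ran from -0.30 without wild-type replicate 3 to -0.049 without knockout replicate 3. Gatm, which makes the creatine precursor guanidinoacetate, read 46.2, 65.2 and 45.5 in wild type against 34.3, 44.9 and 45.6 in the knockout. Gamt, which methylates it to creatine, stood at -0.20 ± 0.17 (SE), and the creatine transporter Slc6a8 at -0.014 ± 0.12. The groups of all 3 genes overlapped.

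Genes that exchange ATP and phosphate across the mitochondrial membranes had a median of -0.097, with 2 of 5 higher and 0 past the threshold in limma (smallest adjusted p = 0.937). The direction rests on single arrays: the median was 0.19 without knockout replicate 2, 0.014 without wild-type replicate 1 and -0.20 without knockout replicate 3. Slc25a4, the ADP/ATP carrier of heart and muscle, read 5459.3, 5493.4 and 5920.9 in wild type against 6083.3, 5801.9 and 6794.6 in the knockout, a difference of 0.14 ± 0.083 (SE). Like Ak1 and the brighter Ckmt2 probe set it was higher in the knockout within both title prefixes. Vdac2, a pore of the outer membrane, stood at -0.40 ± 0.21.

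Downstream of AMP and adenosine, 4 of 5 tested genes were lower in the knockout, where 53.2% of all probe sets tested were lower. The median was -0.10, and 0 passed in limma (smallest adjusted p = 0.923). Without knockout replicate 3 the median was -0.22, and leaving out wild-type replicate 3 brought it to -0.043. Pnp, the phosphorylase that takes up the inosine made by adenosine deaminase, read 137.2, 109.3 and 117.6 in wild type against 87.3, 118.1 and 71.8 in the knockout. Within the larger prefix both knockout arrays were below wild type, but replicate 2 was not. Xdh, which oxidises hypoxanthine to uric acid, stood at -0.30 ± 0.25 (SE). Adk, the kinase that competes with Ada for adenosine, read 672.8 to 762.7 in wild type against 480.5 to 837.4 in the knockout.

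Among adenosine receptors, transporters and ectonucleotidases 3 genes were tested, Slc29a1, Entpd2 and Entpd6, so no receptor was covered. In the knockout 2 of them were higher, with a median of 0.13 (0.079 without wild-type replicate 1 and 0.21 without wild-type replicate 2). In limma 0 were past the threshold (smallest adjusted p = 0.923). Slc29a1, an equilibrative nucleoside transporter that carries adenosine across the cell membrane, read 137.7, 129.4 and 185.3 in wild type against 197.4, 184.4 and 187.9 in the knockout. Wild-type replicate 3 alone lay inside the knockout range, and the log2 difference was 0.35 ± 0.16 (SE). Entpd6 stood at -0.67 ± 0.40, with knockout values of 20.8, 50.1 and 74.5.

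AMP that escapes deamination activates AMP-activated protein kinase, the energy sensor of the fibre. Of the 10 genes listed for it 5 had a probe set, and neither catalytic subunit, Prkaa1 or Prkaa2, was among them. All 5 tested genes of that list were higher in the knockout, as were 46.8% of all probe sets tested, with a median of 0.18 (0.12 without wild-type replicate 2 and 0.29 without wild-type replicate 3), and 0 passed in limma (smallest adjusted p = 0.923). Stk11, the upstream kinase, read 123.5, 116.1 and 114.4 in wild type against 165.2, 143.6 and 132.8 in the knockout, without overlap. Its partner Strada read 29.1, 39.5 and 25.4, and 50.6, 51.7 and 41, also without overlap and near the filter value. In wild type only replicate 2 reached the filter value of 39.4, so the direction of Strada was in part set by the filter. Over all probe sets tested, 5.45% were higher without overlap. The gamma subunit Prkag1 stood at 0.15 ± 0.16 (SE) and the beta subunit Prkab1 at 0.064 ± 0.24. After quantile normalization the list's median was 0.19. The medians of the other lists around the members also changed little under that setting. They were -0.19 for creatine supply, -0.093 for AMP and adenosine handling and 0.15 for adenosine receptors and transporters. Purine synthesis stood at -0.028, nucleotide kinases at -0.064 and mitochondrial exchange at -0.084.

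**Figure D3:**
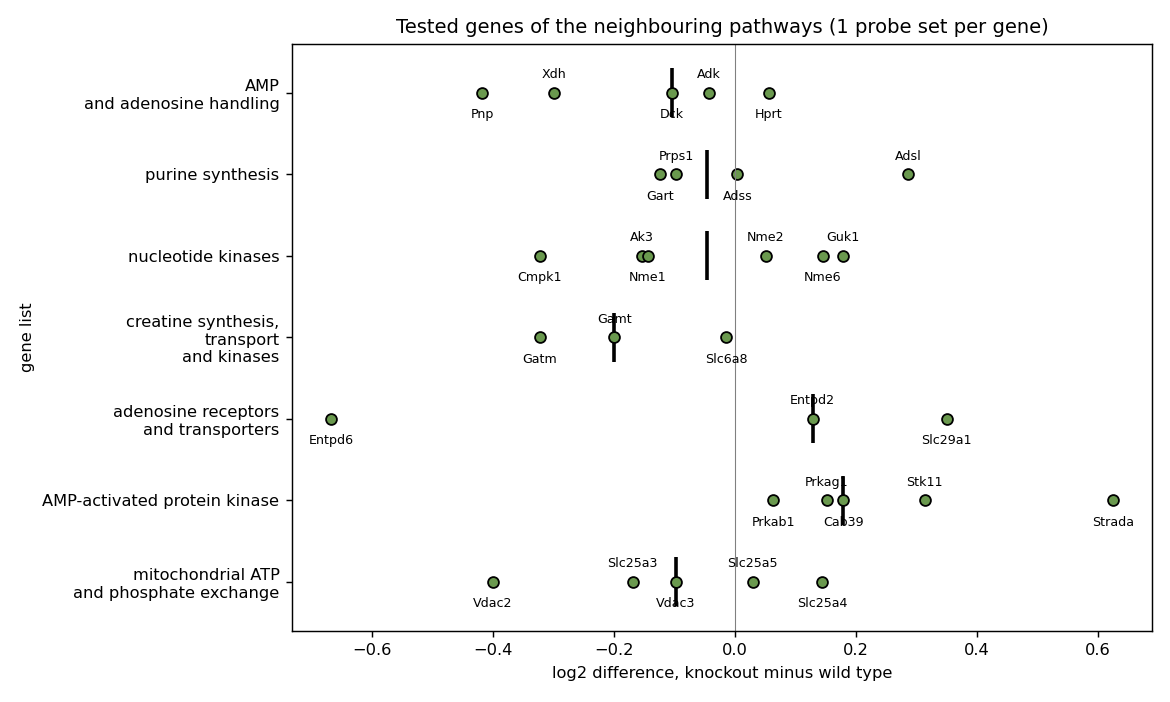
Log2 difference, knockout minus wild type, of each tested gene in the 7 lists around the members, with 1 probe set per gene (the brightest). Vertical black bars are list medians, from -0.20 for creatine supply to 0.18 for AMP-activated protein kinase, and no gene passed the adjusted threshold.

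**Figure D4:**
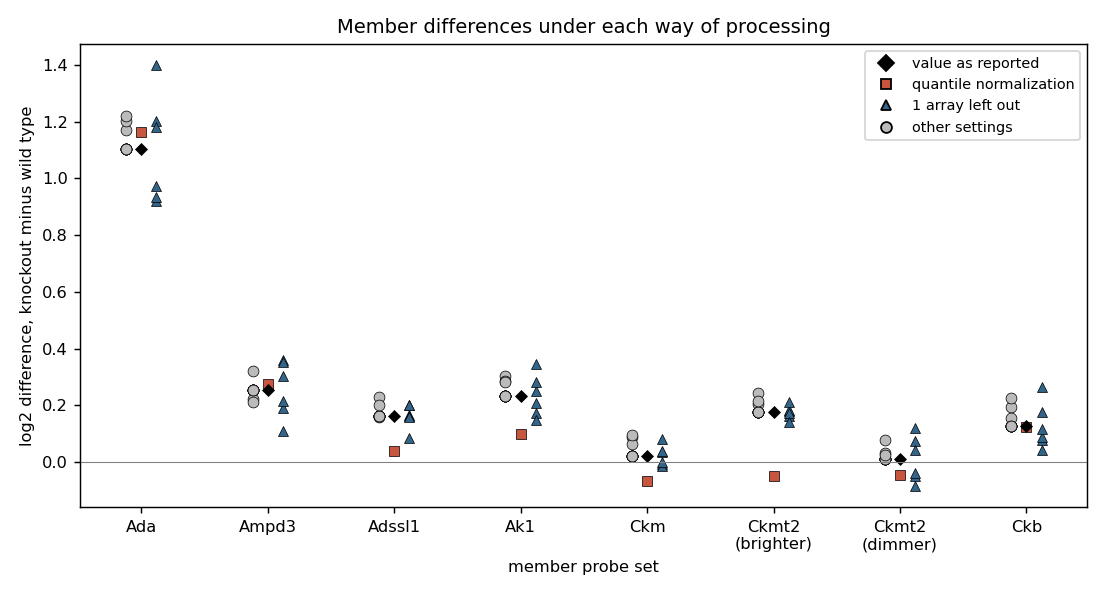
Log2 difference, knockout minus wild type, of the 8 tested member probe sets as reported (black diamonds), after quantile normalization (red squares), with 1 array left out (blue triangles) and under the other settings (grey circles). Ada stays between 0.92 and 1.40 in all settings where it was tested, while Ckm and both Ckmt2 probe sets turn below 0 after quantile normalization.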

How the data were processed

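The members, gene lists and tests were chosen with earlier results of these data known. The values are the authors' deposited intensities, linear and 1 per probe set and array; software and genome build are not given in the sources used here. The mean after trimming 2% of values at each end was 100.07 to 100.08 on each array, so the deposited scaling was kept. Of 12488 probe sets, 66 controls were left out; the annotation table gave 1 symbol to 10833 and several to 396. Values under 7.8, the 20th percentile, were set to it before log2. Probe sets above 39.4 on at least 3 of 6 arrays (6369, for 4921 genes) were fitted with limma 3.58.1 in R 4.3.3 (lmFit, eBayes with trend). Tests were two-sided, and p-values were adjusted by Benjamini-Hochberg across these probe sets. The steps were tested on simulated data. Precision is limited by the number of arrays, with a median standard error of 0.18 in log2 units, and an exact permutation test of 3 against 3 cannot go below 0.1, so none was run. Counts and medians of lists use the brightest tested probe set of a gene. Summed intensities use the brightest probe set of each listed gene on the array, tested or not.

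Named were every member probe set, up to 2 genes per list with the smallest p, the 3 genes nearest in pattern to Ada, Ampd3, Ckm and Ckb, and Esr2, Myh4 and Actn3. Other list genes and markers (Adss, Ak3, Slc6a8, Adk, Prkag1, Prkab1, Acta1, Mb, Myh7, Hba-a1, Alas2, Slc4a1, Epb42, Pvalb and the lymphocyte markers) were picked with their values in view. Protein sequences were not used here. Plots were made in Python 3.11.15 with matplotlib 3.10.9.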

Additional observations from a re-analysis of the deposited data

How the results depend on the processing

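In the 18 alternatives 0 member probe sets passed the adjusted threshold, and over all probe sets 0 passed except 1 without the filter (Hoxd1), 1 with adjacent title numbers as a replicate block (Myh4) and, over the fits leaving out 1 array, 0 to 1 (Tuba1a without knockout replicate 1). Adjacent title numbers are not shown to pair the samples: deviations of adjacent arrays correlated at -0.005, 0.035 and -0.003. Ada kept its direction in the 17 settings where it was tested (0.92 to 1.40); with the filter at the 70th percentile it was not tested. Ampd3, Adssl1, Ak1 and Ckb kept theirs in all 18. After quantile normalization Ckm stood at -0.065, the brighter Ckmt2 probe set at -0.048 and the dimmer one at -0.046; the cause was not tested. With 1 array left out Ckm ran from -0.015 to 0.083, with -0.0070 without wild-type replicate 1 and -0.015 without knockout replicate 1. The dimmer Ckmt2 probe set ran from -0.085 to 0.12, with -0.085 without wild-type replicate 2, -0.048 without knockout replicate 1 and -0.039 without knockout replicate 3. The members whose groups did not overlap numbered 1 after quantile normalization, where 9.32% of all probe sets did not overlap. Among the 4 arrays with one title prefix they numbered 7, where 41% of all probe sets did not overlap with so few arrays. With 1 array left out they numbered 3 to 5, where 17.3% to 25% did not.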
